A study of Pimephales promelas with 51 samples.

Results

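Dexamethasone at a labelled 0.25 µM was compared with its DMSO control in whole fathead minnow larvae. This North American cyprinid is a standard fish for testing chemicals. The comparison took the 3 libraries of that exposure group and the 3 of the control group, 6 of the 51 libraries in the series and 6 of the 27 in the table of counts for dexamethasone. The members were chosen by their labels and by no measured value. Both groups were larvae of the strain GLTED-Duluth-wt, given as 5-6 dpf, and sex was not determined. The 0.25 µM group had a nominal 0.254545 µM and a measured 0.1784 µM of dexamethasone, and the control group, labelled as a DMSO negative control, had a measured 0. Both exposures lasted 24 h. Other concentrations of the same series, each with 3 libraries, served to place the 0.25 µM group. They were labelled 0.08, 0.8 and 25 µM, the next lower, the next higher and the highest.

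Dexamethasone is a synthetic glucocorticoid. It binds the glucocorticoid receptor, which is held in the cytoplasm by a chaperone complex built on Hsp90. The bound receptor enters the nucleus and switches on target genes, among them fkbp5, tsc22d3, klf9 and per1, several of which feed back on the receptor or damp inflammation. In fish larvae cortisol acts through the same receptor in the stress response, in glucose and amino acid metabolism and in the maturation of tissues.

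RNA came from pooled homogenates of whole larvae, so each library averages every tissue of several animals, and fewer cells of a type and less RNA per cell cannot be told apart. Replicates carried the letters A, B and C. The labels do not say that they came from separate tanks or broods, so the p-values below measure the spread between these libraries, which may be technical. Libraries were made with a QuantSeq kit, which reads the 3′ ends of polyadenylated transcripts. Reads counted in genes ranged from 1407239 to 1792613 over the 6 libraries, and between 23643 and 24290 genes had a count in each. Transcripts of every organ looked for were present in the 6 libraries. The muscle protein gene pvalb1 lay between 20896 and 23757 CPM (reads of a gene relative to all reads in genes of the library, scaled by TMM), the pancreatic protease gene ctrb.1 between 2684 and 3562 CPM, rhodopsin (rho) between 1147 and 1494 CPM and the epidermal keratin gene krt4 between 596 and 968 CPM. The most abundant of the blood markers matched, ank1a, lay between 184 and 222 CPM. For blood 5 of 23 matched markers were at 0 in all 6 libraries, and for the lens 3 of 37.

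The groups stood apart in a property of the libraries that may bear on the results below. Reads assigned to no annotated feature made up 31.6, 30.8 and 28.8% of all reads in replicates A, B and C at 0.25 µM, and 24.5, 25.2 and 25.3% in the DMSO libraries. All 3 libraries at 0.25 µM lay above all 3 controls, and replicate C lay nearest to them. The means were 30.4 ± 1.44% at 0.25 µM and 25.0 ± 0.451% in DMSO (SD, n = 3 each), a difference of 5.37 percentage points (exact permutation test, two-sided p = 0.1, the smallest p that 3 against 3 can give). Mean shares at the neighbouring concentrations were 28.6% at 0.08 µM and 30.4% at 0.8 µM, and at 25 µM the mean was 25.8%. Reads that did not align were 8.39 ± 0.236% at 0.25 µM and 7.48 ± 0.191% in DMSO (exact permutation p = 0.1). The comparison with DMSO was therefore also computed with the share of reads assigned to no feature as a covariate. Between concentrations only the counts over all genes are given with it, and single genes and lists are given without it. Since all libraries at 0.25 µM lay above all controls in this share, exposure and share cannot be told apart. The covariate may also take out differences by exposure. The part of this share in any difference in expression was otherwise not tested.

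**Figure D1:**
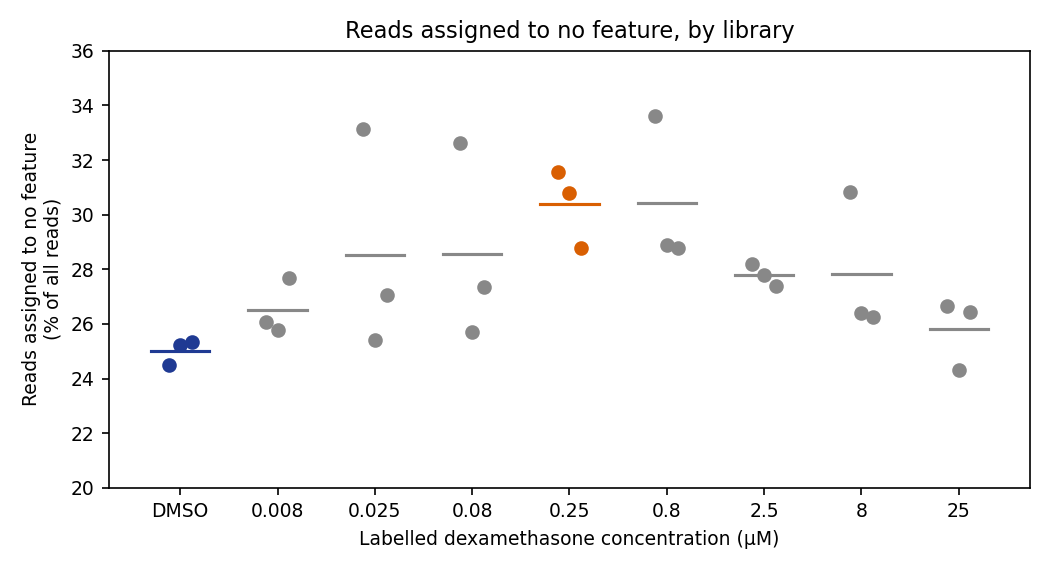
Reads assigned to no feature as a percentage of all reads (y axis, starting at 20%) in each of the 27 libraries of the dexamethasone table, by labelled concentration in µM (x axis). Points are libraries and bars are group means of 3. The 0.25 µM libraries lie between 28.8 and 31.6%, above the DMSO libraries at 24.5 to 25.3%.

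Few genes passed the test between 0.25 µM dexamethasone and DMSO. In edgeR's quasi-likelihood test over the 27 libraries, 3 of 18075 genes passed an adjusted p of 0.05 (0.0166%), 2 higher (0.0111%) and 1 lower (0.00553%) at 0.25 µM. LOC120491637 was among the higher genes and LOC120487973 was the lower one. Neither has a symbol in the files or in the reference table, and no role is given to them here.

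LOC120491637 was at 70.2, 69.9 and 50.8 CPM at 0.25 µM against 24.3, 22.7 and 22.9 CPM in DMSO. Replicate C was the lowest of the exposed libraries and still above all controls. Its log2 fold change was 1.45 ± 0.25 (adjusted p = 0.0174, edgeR). LOC120487973 was at 3.08, 5.70 and 2.75 CPM at 0.25 µM against 17.9, 15.5 and 18.8 CPM in DMSO, a low level that rests on few counts. The exposed libraries were all below the controls, with a log2 fold change of -2.17 ± 0.41 (adjusted p = 0.0197, edgeR). At 25 µM LOC120491637 lay at 32.6, 23.9 and 32.1 CPM and LOC120487973 at 10.2, 20.7 and 6.73 CPM. Both differed from their 0.25 µM levels in the direct comparison, with log2 differences of 1.1 ± 0.24 (adjusted p = 0.00854, edgeR) and -1.71 ± 0.43 (adjusted p = 0.0257, edgeR). That comparison uses the same 0.25 µM libraries by which both genes were called, so it is no separate result.

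Across the 9 groups of the dexamethasone table LOC120491637 was highest at 0.25 µM, at 63.6 CPM, with 23.3 CPM in DMSO and between 24.7 and 43.7 CPM at the other concentrations. LOC120487973 was lowest there, at 3.84 CPM, and between 7.97 and 17.4 CPM elsewhere. The 0.25 µM libraries had led to both calls, so these ranks are no separate result. Neither passed the direct test against 0.08 or 0.8 µM (adjusted p of at least 0.331, edgeR).

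With the share of reads assigned to no feature as a covariate, no gene passed the test (edgeR, 0%), while 912 genes had an unadjusted p under 0.05. The log2 fold changes were then 0.85 for LOC120491637 and -2.16 for LOC120487973. The calls also ended when replicate A or B at 0.25 µM or any DMSO library was left out (0 genes each), and 30 genes were called without replicate C.

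Below the adjusted threshold the 2 groups are described by counts over all genes. Without any difference a share of 0.05 would have an unadjusted p under 0.05. With the covariate 912 of 18075 genes had such a p. That fit may also take out differences by exposure that go with the share of reads, so its count does not separate the 2. Without the covariate an unadjusted p under 0.05 was found for 2017 genes (11.2%), of which 1118 were higher (6.19%) and 899 lower (4.97%). In 3218 genes (17.8%) all 3 libraries of a group lay beyond all 3 of the other, 1552 higher (8.59%) and 1666 lower (9.22%) at 0.25 µM. Without any difference, 3 libraries lie beyond 3 others, in either direction, with a probability of 0.1. A fit to the 6 compared libraries alone, which takes its estimate of spread from them and not from all 27, called 302 of 15576 genes (1.94%), 205 higher (1.32%) and 97 lower (0.623%). Their median log2 fold change was 0.75 for those higher and -0.46 for those lower. In the fit of 27 libraries with the covariate, the same genes had medians of 0.32 and -0.18. They were chosen by calls without the covariate, so the smaller medians may follow from the choice. The 205 higher genes had a median control level of 32.9 CPM and the 97 lower genes one of 193 CPM.

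**Figure D2:**
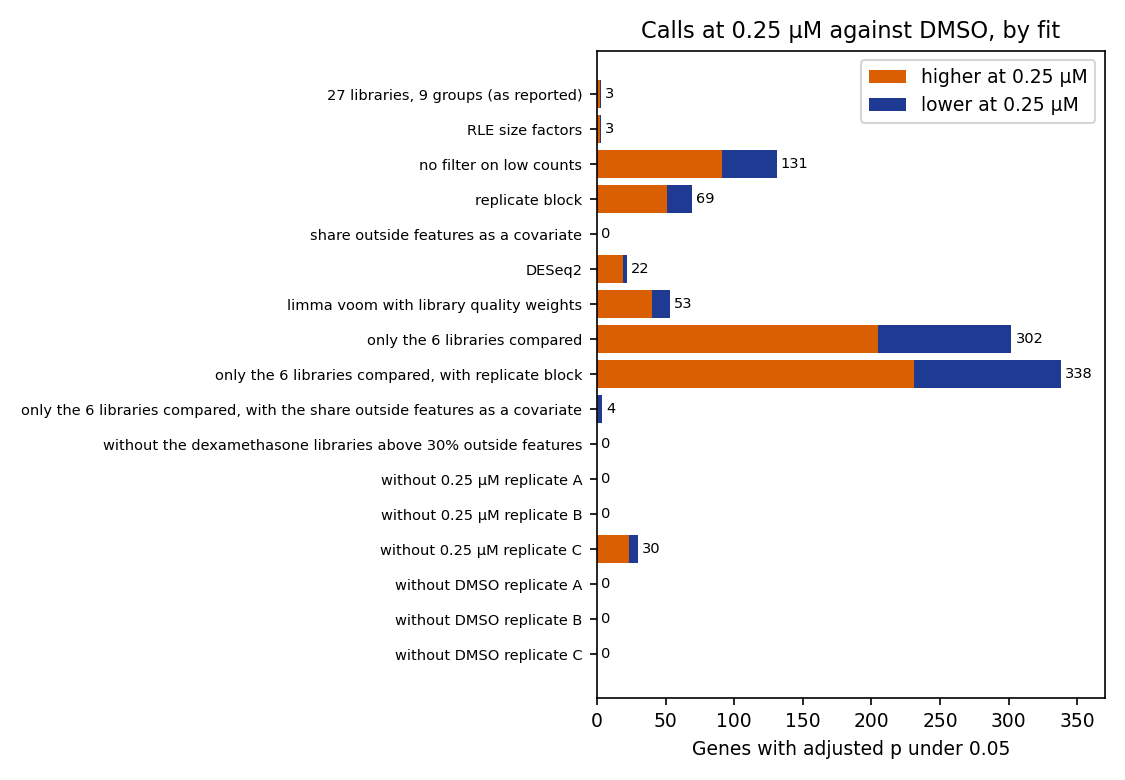
Number of genes with an adjusted p under 0.05 (x axis) at 0.25 µM against DMSO in each fit (y axis), split into higher and lower at 0.25 µM. The reported fit calls 3 genes, the fit of the 6 compared libraries 302, and the fit with the share of reads outside features as a covariate 0.

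The 11 genes described next had a symbol and the smallest p among those higher at 0.25 µM that did not pass in the fit of 27 libraries. They were chosen among genes whose groups did not overlap, so their lack of overlap is no separate result. They were led by pgr, which encodes the progesterone receptor, a steroid receptor related to the glucocorticoid receptor. Its level was 22.2, 29.9 and 21.3 CPM at 0.25 µM and 5.78, 10.7 and 11.1 CPM in DMSO. The log2 fold change was 1.41 ± 0.30 (adjusted p = 0.0698 in edgeR's fit of 27 libraries, 0.00467 in that of 6). At 25 µM pgr lay between these, at 11.2, 14.8 and 15.7 CPM, and did not pass against 0.25 µM (adjusted p = 0.158, edgeR). Its mean over the 9 groups was highest at 0.25 µM, at 24.5 CPM, with 15.7 CPM at 0.025 µM the next. Since pgr was chosen by its 0.25 µM libraries, this rank is no separate result.

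The gene bag3, which encodes a co-chaperone of Hsp70 active in muscle protein quality control, was at 43.7, 50.6 and 24.7 CPM at 0.25 µM and 15, 20.3 and 19.5 CPM in DMSO. Replicates A and B carried most of that difference, and replicate C lay just above the controls (log2 fold change 1.1 ± 0.25, adjusted p = 0.0698, edgeR). The sodium leak channel gene nalcn was at 188, 165 and 135 CPM against 91.4, 113 and 107 CPM (log2 0.65 ± 0.14). The gene pcdh15a, for a cadherin of the hair cell tip link, was at 266, 314 and 234 CPM against 185, 198 and 175 CPM (log2 0.54 ± 0.12). The phosphatase gene dusp26 lay at 34.5, 40.6 and 24.0 CPM against 15, 17.3 and 13.9 CPM, and ttll5, a tubulin polyglutamylase gene, at 67.7, 52.0 and 40.5 CPM against 26.0, 30.4 and 35.4 CPM. The others were fibcd1b, si:dkey-21p1.3, clybl, fam117aa and naaladl2. Over the 11 genes log2 fold changes ran from 0.54 to 1.41 and adjusted p from 0.0698 to 0.0968 (edgeR, 27 libraries). All 11 passed in the fit of 6 libraries. All 11 stayed above 0 with the covariate, and all 11 became smaller there. They were chosen by their p without the covariate, so the smaller values may follow from the choice. The fit of 6 libraries uses the libraries that chose them and is no separate result.

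On the lower side 12 genes were chosen on the same conditions, with no overlap between the groups. None of the 12 passed in the fit of 27 libraries, where their adjusted p ran from 0.0698 to 0.117 (edgeR). All 12 passed in the fit of 6 libraries, by which they are members of the 302. hsc70, a heat shock cognate chaperone gene, was at 78.8, 108 and 117 CPM at 0.25 µM and 180, 133 and 166 CPM in DMSO (log2 -0.66 ± 0.15). It was also lower than at 25 µM, where it lay at 200, 231 and 188 CPM (log2 difference -1.03 ± 0.14, adjusted p = 5.15e-06, edgeR). The same 0.25 µM libraries led to the choice of hsc70, so this is no separate result. The lectin chaperone gene of the endoplasmic reticulum calr was at 68.4, 67.0 and 94.8 CPM against 109, 118 and 106 CPM, and the disulphide isomerase gene pdia6 at 48.7, 47.1 and 66.6 CPM against 78.6, 101 and 71.5 CPM. In both, replicate C lay nearest to the controls.

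The chaperonin subunit gene cct6a was at 75.8, 67.0 and 74.9 CPM against 109, 102 and 99.3 CPM (log2 -0.51 ± 0.14), the nuclear import receptor gene kpnb1 at 22.2, 27.8 and 27.5 CPM against 35.3, 45.4 and 53.5 CPM, and the proteasome subunit gene psma2 at 22.2, 19.96 and 18.5 CPM against 41.1, 33.4 and 36.8 CPM. None of these groups overlapped, which was a condition of the choice. The mitochondrial co-chaperone gene grpel1, the proton pump subunit gene atp6v1d, the transcription factor subunit gene gtf2h3 and the ubiquitin ligase gene rnf139 had log2 fold changes of -1.95, -1.75, -1.76 and -1.59, at no more than 7.56 CPM in any exposed library. The last were zgc:153867 and zc3h7bb. All 12 stayed below 0 with the covariate, and 10 became smaller.

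**Figure D3:**
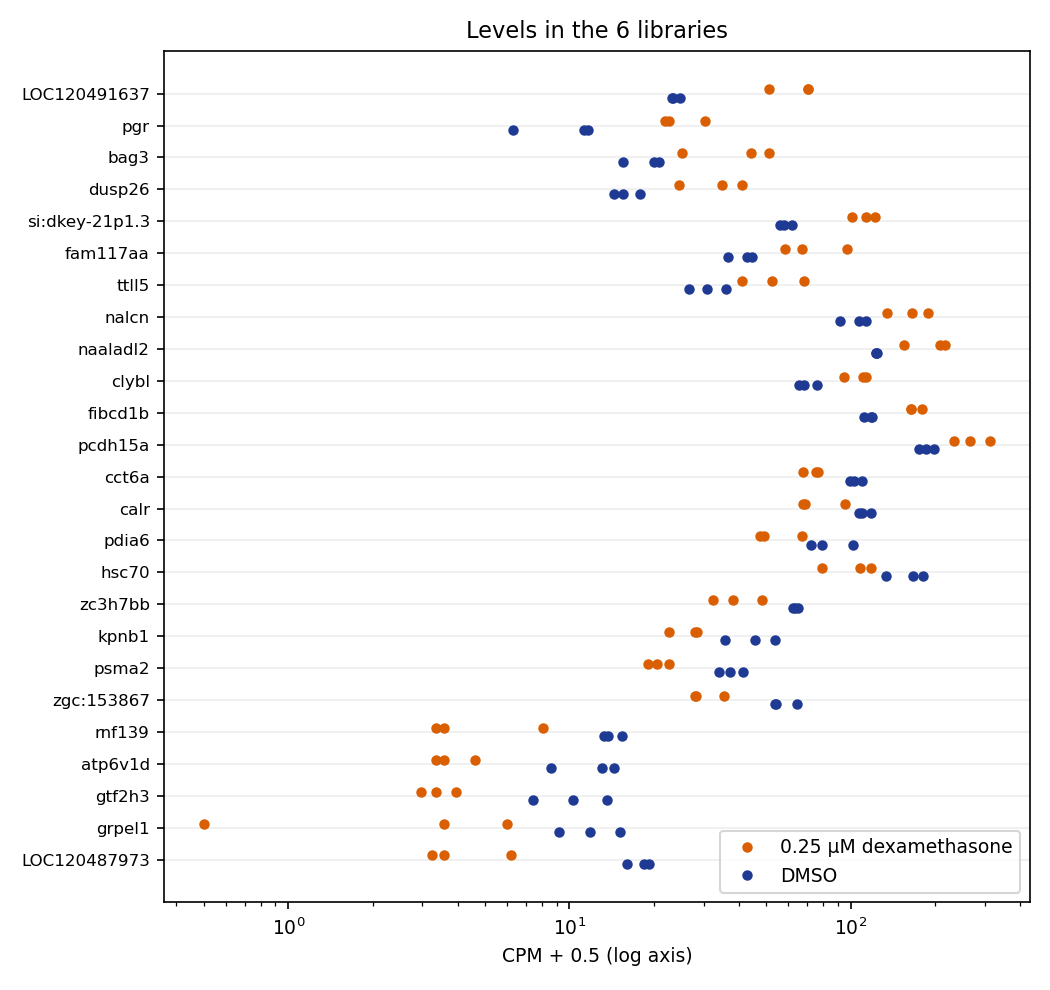
Level of each of 25 genes (y axis) in each of the 6 libraries, in CPM plus 0.5 on a log axis (x axis). Points are libraries. The 3 libraries at 0.25 µM lie beyond all 3 DMSO libraries in each gene shown, since the 23 genes other than the 2 without a symbol were chosen on that condition.

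The glucocorticoid receptor itself, nr3c1, was at 52.3, 47.1 and 41.9 CPM at 0.25 µM and 58.4, 45.4 and 62.5 CPM in DMSO. The groups overlapped and the difference did not pass (log2 -0.23 ± 0.17, adjusted p = 0.646, edgeR). The mineralocorticoid receptor gene nr3c2 was at 101, 121 and 103 CPM against 82.7, 98.5 and 68.1 CPM, without overlap, and did not pass (log2 0.38 ± 0.15, adjusted p = 0.320, edgeR). The corticotropin-releasing hormone gene crhb was at 24.0, 21.4 and 24.0 CPM against 18.5, 17.3 and 17.4 CPM, without overlap. The cortisol-inactivating enzyme gene hsd11b2 overlapped, at 13.5, 7.13 and 17.9 CPM against 14.5, 8.36 and 11.1 CPM. The pituitary hormone precursor gene pomca overlapped too, at 11.1, 13.5 and 9.62 CPM against 8.67, 2.98 and 16.0 CPM. Of 11 tested genes of the receptors and the stress axis, 5 were higher and 6 lower, 1 had an unadjusted p under 0.05 and none passed (edgeR).

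Of the chaperones and co-chaperones that hold the receptor, 11 of 12 tested were lower and 6 of 12 lay below all controls, against 9.22% of all genes, with a median log2 fold change of -0.24 (-0.07 with the covariate, all genes -0.01). None passed in the fit of 27 libraries (3 with an unadjusted p under 0.05, edgeR). The Hsp70 family gene hspa8 was at 957, 1066 and 1184 CPM against 1300, 1236 and 1268 CPM (log2 -0.25 ± 0.10, adjusted p = 0.334, edgeR), and the p23 gene ptges3a at 31.4, 18.5 and 26.1 CPM against 46.3, 37.6 and 32.6 CPM (log2 -0.61 ± 0.20). The log2 fold change of hspa8 was 0.00 with the covariate.

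No receptor target gene passed the test against DMSO at 0.25 µM. Of 31 entries in the target list 29 were tested, and none was called in edgeR's fit of 27 libraries, in DESeq2 or in limma (1 higher and 3 lower with an unadjusted p under 0.05 in edgeR). DESeq2 gave an adjusted p to 22 of the 29, so the rest could not be called there. Calls among the targets did appear in other fits with edgeR. Without a filter on low counts 2 were called, fkbp5 lower and pdk2b higher. The fit of the 6 libraries called 2 of 28, beside 1.94% of all genes, or 3 with a replicate block. With the covariate, in an alternative chosen after seeing the data, the 6 libraries gave 0 targets. Differences were above 0 in 11 and below 0 in 18 of the 29, with a median of -0.12 (0.14 with the covariate). In 22 of 29 the groups overlapped. Of the others 2 lay above and 5 below all controls, where 8.59% and 9.22% of all genes did. For 19 of 29 the log2 fold change was within 0.25 of 0.

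fkbp5 encodes a receptor co-chaperone that damps receptor signalling and is among the most used markers of glucocorticoid exposure. Its level was 105, 68.4 and 84.5 CPM at 0.25 µM and 118, 159 and 113 CPM in DMSO. All exposed libraries lay below all controls, and the difference did not pass (log2 fold change -0.59 ± 0.22, adjusted p = 0.317, edgeR), although it did in the fit of the 6 libraries (adjusted p = 0.0200, edgeR). With the covariate the log2 fold change of fkbp5 was -0.39 ± 0.27 and did not pass (adjusted p = 0.983, edgeR). At 25 µM the same gene was at 619, 635 and 651 CPM, far above both groups, and the direct difference of 0.25 from 25 µM was -2.87 ± 0.21 on the log2 scale (adjusted p = 6.24e-09, edgeR). The means by rising labelled concentration were 130 CPM in DMSO, 120.4 at 0.008 µM, 113 at 0.025 µM, 88.6 at 0.08 µM, 86.1 at 0.25 µM, 158 at 0.8 µM, 288 at 2.5 µM, 426 at 8 µM and 635 CPM at 25 µM, so that the lowest mean of fkbp5 was at 0.25 µM.

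klf9, a transcription factor gene that answers directly to the receptor, was at 27.7, 19.96 and 18.5 CPM at 0.25 µM and 28.3, 38.8 and 42.4 CPM in DMSO (log2 -0.70 ± 0.23, adjusted p = 0.248, edgeR). Exposed replicate A lay just below the lowest control, and the groups did not overlap. nfkbiab, an inhibitor of NF-kB, was at 28.3, 35.6 and 25.4 CPM against 40.5, 63.9 and 42.4 CPM (log2 -0.72 ± 0.20, adjusted p = 0.136, edgeR). It was the other target called in the fit of 6 libraries (adjusted p = 0.0419, edgeR), and both targets called there were lower at 0.25 µM. With a replicate block the fit of 6 libraries called these and pdk2b, which was higher. In the 27 libraries with the covariate klf9 and nfkbiab had log2 fold changes of -0.73 and -0.52. Neither passed there (adjusted p = 0.961 and 0.966, edgeR).

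tsc22d3, also known as GILZ and anti-inflammatory in mammals, was at 125, 113 and 147 CPM against 124, 144 and 154 CPM, with overlap (log2 -0.13 ± 0.13). The clock genes per1a and per1b had log2 fold changes of -0.38 and -0.16, and the kinase gene sgk1 one of 0.17, none of which passed. Glutamine synthetase, glulb, lay at 376, 396 and 420 CPM against 404, 365 and 417 CPM, a log2 fold change of 0.01 ± 0.11. The amino acid catabolic gene tat was at 153, 180 and 180 CPM against 154, 112 and 188 CPM. Of these 6 genes per1b alone did not overlap, at 82.5, 79.1 and 79.7 CPM against 89.6, 86.0 and 95.2 CPM.

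The largest difference above 0 among the targets was in pdk2b, a kinase that holds back pyruvate oxidation, at 464, 328 and 548 CPM against 233, 211 and 265 CPM. No library overlapped, yet the gene varied widely within groups of the 27 libraries (replicates at 25 µM were 431, 826 and 424 CPM), and the difference did not pass (log2 0.92 ± 0.40, adjusted p = 0.408, edgeR). It did pass without a filter on low counts (adjusted p = 1.50e-11, edgeR) and in the 6 libraries with a replicate block (adjusted p = 4.46e-16, edgeR). It missed the threshold in the 6 libraries without a block (adjusted p = 0.0626, edgeR). The log2 fold change in these fits was 0.92, 0.91 and 0.93, so their p differ by the estimate of spread and not by the size of the difference. With the covariate the log2 fold change of pdk2b was 1.31 ± 0.47 and did not pass (adjusted p = 0.966, edgeR). The related pdk4 was at 57.9, 63.5 and 58.4 CPM against 53.2, 57.3 and 47.9 CPM (log2 0.18, adjusted p = 0.730, edgeR).

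**Figure D4:**
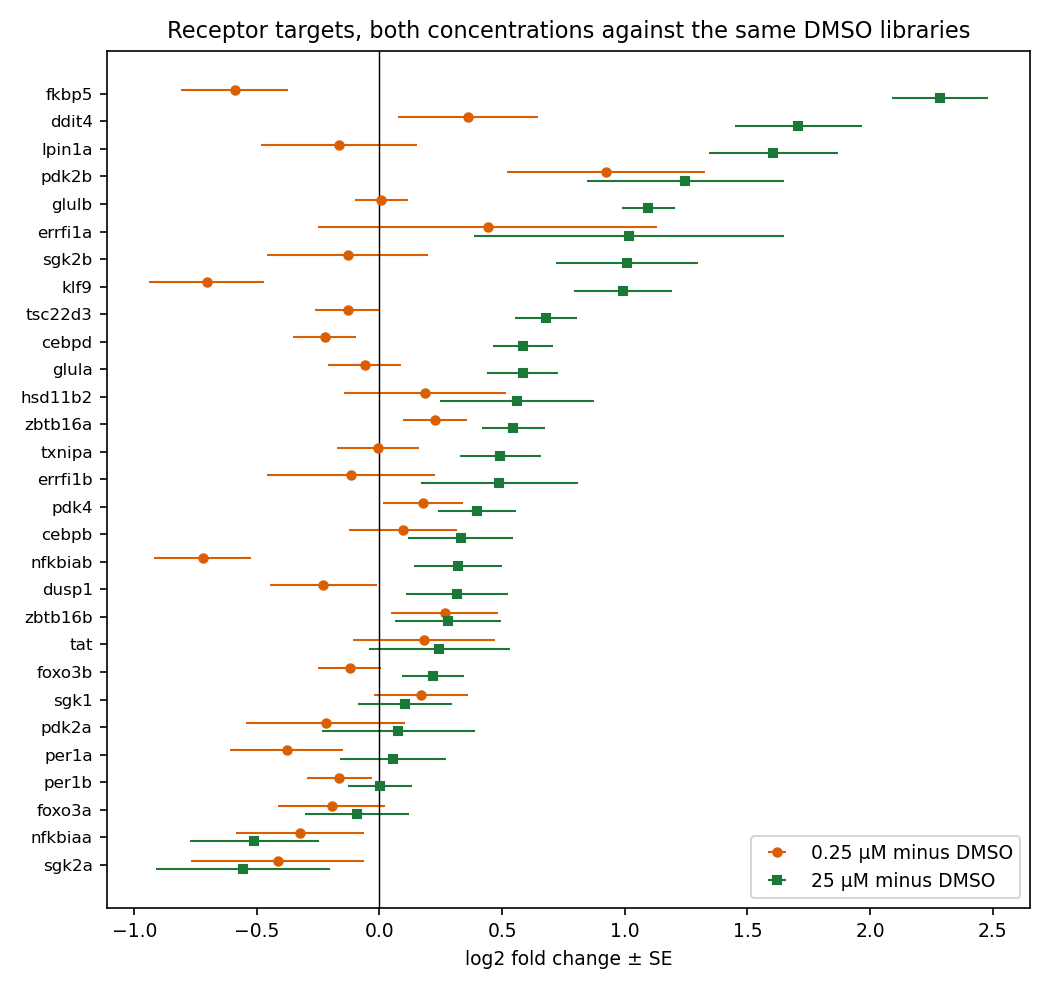
Log2 fold change ± SE (x axis) of the 29 tested receptor targets (y axis) at 0.25 µM and at 25 µM, both against the same 3 DMSO libraries. At 0.25 µM the values run from -0.72 to 0.92 on both sides of 0, and fkbp5 is at -0.59 where its 25 µM value is the highest of the list.

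Set directly against 25 µM, the libraries at 0.25 µM had 172 genes lower (0.952%) and 47 higher (0.26%), 219 in all (1.21%, edgeR). This contrast does not use the DMSO libraries. Among the 29 receptor targets 10 were lower at 0.25 µM than at 25 µM and none higher, and 26 of 29 differences were below 0, with a median of -0.43 on the log2 scale. With the share of reads assigned to no feature as a covariate the split over all genes was 93 lower and 96 higher. Counts of list members against 25 µM are given without the covariate. The count of 219 fell to 85 without replicate B at 25 µM, to 105 without replicate A and to 116 without replicate B at 0.25 µM.

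The 10 lower targets were fkbp5, klf9, lpin1a, ddit4, sgk2b, glulb, nfkbiab, tsc22d3, cebpd and glula. klf9 lay at 68.2, 78.8 and 70.3 CPM at 25 µM, above all 0.25 µM libraries (log2 difference -1.70 ± 0.22, adjusted p = 3.76e-07, edgeR). lpin1a, a phosphatidate phosphatase gene, was at 8.01, 10.7 and 13.1 CPM at 0.25 µM and 39.7, 40.0 and 27.7 CPM at 25 µM (log2 difference -1.77 ± 0.27, adjusted p = 2.39e-05, edgeR). glulb was at 818, 872 and 845 CPM at 25 µM (-1.09 ± 0.11, adjusted p = 2.79e-10, edgeR). These 3 genes did not overlap between the concentrations.

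ddit4, an inhibitor of mTOR signalling, was at 50.5, 49.2 and 44.0 CPM at 0.25 µM and 96.1, 150 and 122 CPM at 25 µM (log2 difference -1.35 ± 0.25, adjusted p = 0.00402, edgeR). tsc22d3 was at 206, 271 and 197 CPM at 25 µM (-0.81 ± 0.13, adjusted p = 4.63e-05, edgeR), and cebpd, a transcription factor gene, at 262, 340 and 286 CPM against 168, 178 and 161 CPM at 0.25 µM. For all of these the 0.25 µM libraries lay below every 25 µM library.

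Several of the genes with the smallest p at 25 µM against DMSO overlapped their control level at 0.25 µM. Both comparisons share the DMSO libraries, so their values are given side by side only. The kinase gene stk35 was at 61.0, 62.7 and 70.1 CPM at 0.25 µM, 61.3, 90.7 and 74.3 CPM in DMSO and 147, 211 and 169 CPM at 25 µM. The muscle stress gene ankrd1b was at 24.0, 31.4 and 18.5 CPM, 17.3, 30.4 and 26.4 CPM, and 74.8, 71.7 and 62.8 CPM in the same order, and the lipid droplet enzyme gene pnpla3 at 47.4, 42.1 and 45.3 CPM, 42.8, 51.9 and 39.6 CPM, and 97.1, 88.4 and 105 CPM. In each of these 3 genes the 0.25 µM libraries overlapped the controls and lay below 25 µM. Against 25 µM their log2 differences were -1.44, -1.51 and -1.10. The genes were chosen by their 25 µM libraries, which this comparison uses again, so no p is given. rps6kb1a, a growth-signalling kinase gene, did not overlap DMSO, at 116, 130 and 127 CPM against 101, 69.2 and 99.3 CPM, and 241, 317 and 206 CPM at 25 µM. Its log2 fold change against DMSO was 0.47 ± 0.18 (adjusted p = 0.316 with 27 libraries and 0.0339 with 6, edgeR). The choice of rps6kb1a used the same DMSO libraries, so this is no separate result.

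Genes higher at 0.25 than at 25 µM included cyp3a65, a detoxifying cytochrome P450 gene, at 241, 301 and 231 CPM against 123, 138 and 117 CPM at 25 µM (log2 difference 1.03 ± 0.17, adjusted p = 0.000339, edgeR). In DMSO it lay at 350, 350 and 263 CPM, overlapping the 0.25 µM range. apom, a lipoprotein component, was at 163, 183 and 144 CPM against 92.1, 85.2 and 105 CPM (0.80 ± 0.13, adjusted p = 8.45e-05, edgeR), and rcvrn2, a recoverin of photoreceptors, at 136, 115 and 113 CPM against 58.5, 82.6 and 80.7 CPM (0.73 ± 0.13).

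Of the 46 tested genes of the cell cycle and DNA replication, 4 were higher at 0.25 than at 25 µM (pcna, cdk2, bub1 and rpa1), beside 0.26% of all genes. None was lower, and the median difference was 0.67. pcna, the sliding clamp of DNA polymerase, was at 86.8, 65.6 and 87.9 CPM at 0.25 µM, 43.2, 53.6 and 44.1 CPM at 25 µM and 118, 135 and 117 CPM in DMSO. Its 0.25 µM libraries thus lay between the others without overlap. Against 25 µM the log2 difference was 0.78 ± 0.20 (adjusted p = 0.0457, edgeR), and against DMSO it was -0.62 ± 0.18 (adjusted p = 0.196 with 27 libraries and 0.00467 with 6, edgeR). Against DMSO 31 of 46 genes of the list were lower, with a median of -0.29 (-0.08 with the covariate).

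Glycolytic genes (5 of 32) and muscle genes (6 of 40) were also lower at 0.25 than at 25 µM, beside 0.952% of all genes. The glycolytic genes were pfkma, aldoaa, gapdh, pgk1 and pkmb, with log2 differences from -0.43 to -1.04, and the muscle genes included ankrd1b, ckmb and myl1. Against DMSO neither list had a gene that passed (2 of 32 and 6 of 40 with an unadjusted p under 0.05, all lower, beside 4.97% of all genes, edgeR). The medians were -0.07 and -0.14, and both turned above 0 with the covariate, at 0.14 and 0.05. The clock list gave 3 of 33 lower than at 25 µM (nr1d2a, nr1d4b and tefb), and the list of insulin and growth signalling 5 of 40 (igf2b, ddit4, eif4ebp1, eif4ebp3l and rps6kb1a), beside the same 0.952%.

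The next concentrations differed little from 0.25 µM. Against 0.08 µM no gene passed (0%, with 980 at an unadjusted p under 0.05, edgeR, and 0 in DESeq2 and limma). Against 0.8 µM 3 genes were lower at 0.25 µM (0.0166%, edgeR) and none higher, with 1 gene called without replicate C at 0.25 µM or without replicate A or C at 0.8 µM, and 6 without replicate B at 0.8 µM. The named gene among them was ttn.1, which encodes the giant muscle protein titin, with a mean of 2373 CPM at 0.25 µM and 3254 CPM at 0.8 µM (log2 difference -0.46 ± 0.09, adjusted p = 0.0340, edgeR). In DMSO ttn.1 lay at 2728, 2666 and 2672 CPM, above the 2264, 2433 and 2421 CPM at 0.25 µM, and that difference did not pass (log2 -0.18 ± 0.09, adjusted p = 0.445, edgeR). fkbp5 was at 118, 142 and 213 CPM at 0.8 µM, above the 0.25 µM libraries, and that difference did not pass (log2 -0.87 ± 0.21, adjusted p = 0.350, edgeR).

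In 34 gene lists, which cover pathways, tissues and complexes, no tested member passed against DMSO in edgeR's fit of 27 libraries, so the lists are described by counts and medians. The median log2 fold change was below 0 in 27 lists and above 0 in 7. With the covariate 15 were below 0.

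Cytosolic ribosomal protein genes were lower at 0.25 µM in 78 of 80 tested, and 54 of 80 lay below all DMSO libraries, where 9.22% of all genes did. The median was -0.17, and 26 had an unadjusted p under 0.05, all lower. rps15a was at 768, 884 and 887 CPM against 1090, 1021 and 1080 CPM (log2 -0.33 ± 0.10, adjusted p = 0.197, edgeR), and rpl39 at 566, 569 and 639 CPM against 773, 729 and 754 CPM (-0.35 ± 0.11, adjusted p = 0.196, edgeR). The summed level of the list was 66035 to 72679 CPM at 0.25 µM and 78078 to 79450 CPM in DMSO, without overlap. The list medians per library, on the log2 scale relative to the DMSO mean, were -0.26, -0.14 and -0.10 for replicates A, B and C. With the covariate the median was 0.03. In the fit of 6 libraries 9 of 79 genes were called, all lower, beside 0.623% of all genes. Ribosomal genes have near-identical copies whose reads may align to several places, so single values are uncertain.

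Nuclear genes of the mitochondrial respiratory chain gave 67 of 76 lower and 28 below all controls (9.22% of all genes were), with a median of -0.20 (0.11 with the covariate). cox8a, a subunit of cytochrome oxidase, was at 147, 168 and 169 CPM against 215, 235 and 232 CPM (log2 -0.49 ± 0.15, adjusted p = 0.217, edgeR), and atp5mc1, of the ATP synthase ring, at 147, 139 and 191 CPM against 220, 236 and 222 CPM (-0.51 ± 0.18). Both were among the 7 of 74 called, all lower, in the fit of 6 libraries, beside 0.623% of all genes. Proteasome genes gave 33 of 39 lower, 13 below all controls (beside the same 9.22%) and a median of -0.26 (-0.02 with the covariate). In all 3 lists replicate A was the lowest of the exposed libraries and replicate C the nearest to DMSO, which is also the order of the share of reads assigned to no feature. Replicate A also had the highest such share of its group at 0.08, 0.8 and 25 µM. Other lists had other orders. Replicate B had the lowest median in those of matrix, skin, retina, cell cycle and receptor targets. Replicate C had it in those of ionocytes and xenobiotic genes. A link of the order to the share was not tested.

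Genes of motile cilia and the axoneme had the highest median of the lists, with 47 of 66 higher, 16 above all controls (8.59% of all genes were) and a median of 0.28 (0.05 with the covariate). odad2, of the dynein docking complex, was at 31.4, 39.9 and 28.2 CPM against 17.9, 17.3 and 18.1 CPM (log2 0.90 ± 0.25, adjusted p = 0.143, edgeR). rfx3, a transcription factor gene of ciliated cells, was at 62.8, 47.8 and 42.6 CPM against 25.4, 39.4 and 30.6 CPM (0.69 ± 0.20, adjusted p = 0.169, edgeR). Both were called in the fit of 6 libraries (adjusted p = 0.0246 and 0.0393, edgeR). They were 2 of 46 genes of the list tested there, beside 1.32% of all genes called higher. odad2 was also higher than at 25 µM (0.97 ± 0.25, adjusted p = 0.0345, edgeR). It was chosen for its p against DMSO with the same 0.25 µM libraries, so this is no separate result. List medians were 0.36, 0.23 and 0.13 in replicates A, B and C.

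**Figure D5:**
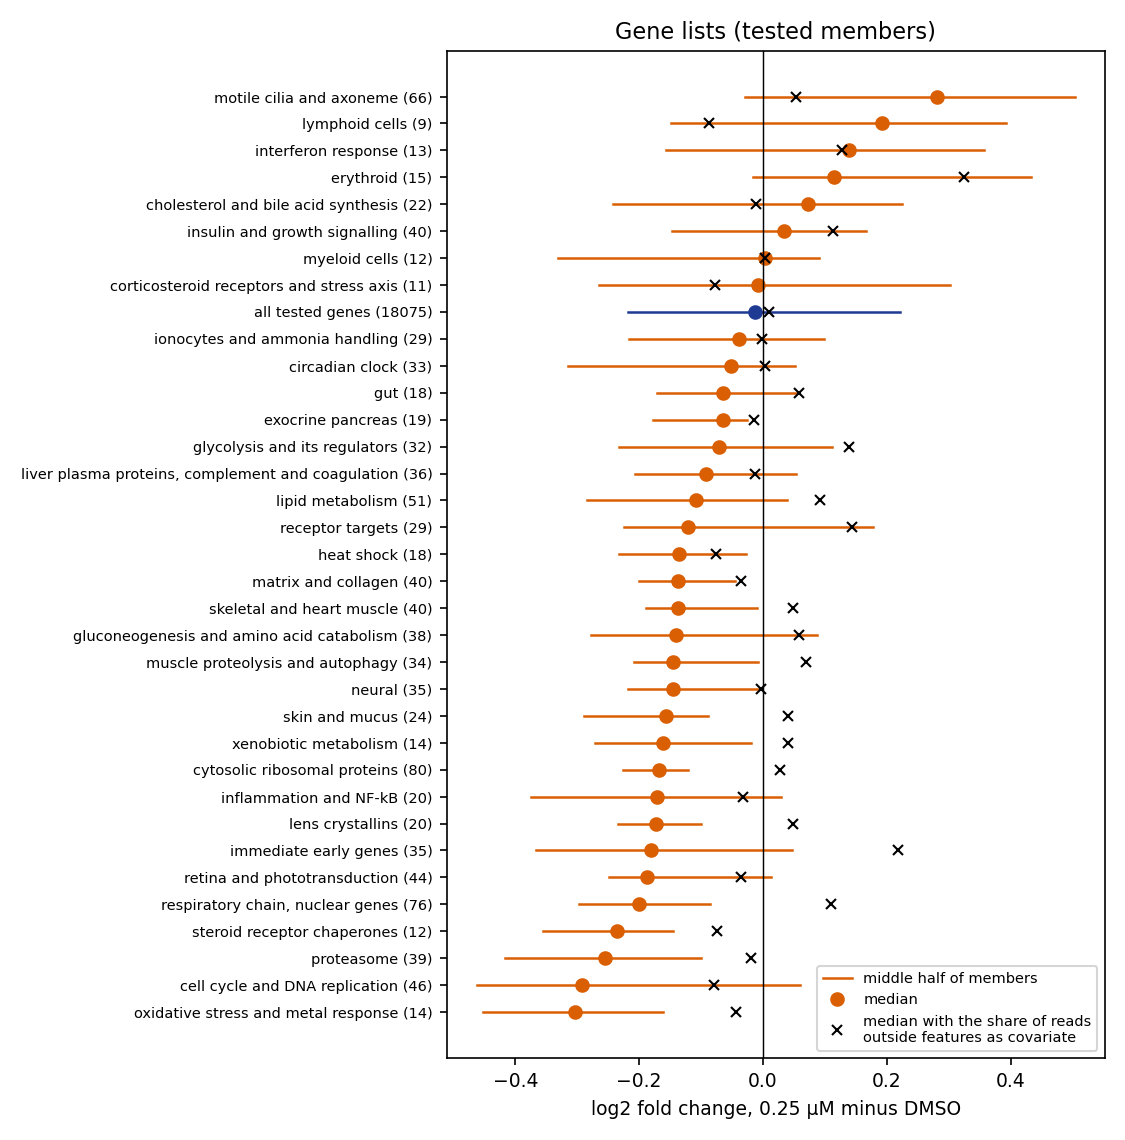
Median log2 fold change at 0.25 µM against DMSO (x axis, circles) of the tested members of 34 gene lists (y axis, number of members in brackets) and of all tested genes, with lines over the interquartile range of the members. Crosses are medians with the share of reads outside features as a covariate. Circles run from -0.30 to 0.28, and most crosses lie nearer to 0.

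Tissue lists mostly lay below 0 too. Muscle genes were lower in 31 of 40, with 14 below all controls (9.22% of all genes were). The creatine kinase gene ckmb was at 472, 413 and 555 CPM against 749, 628 and 668 CPM (log2 -0.51 ± 0.17, -0.07 with the covariate, adjusted p = 0.266, edgeR). Epidermal and mucous genes were lower in 20 of 24, and cdh1, the epithelial cadherin, was at 78.8, 84.1 and 85.9 CPM against 147, 109 and 105 CPM (-0.54 ± 0.15, adjusted p = 0.125, edgeR). Matrix genes were lower in 31 of 40, with col2a1b, a cartilage collagen gene, at 187, 236 and 238 CPM against 257, 343 and 285 CPM (-0.42 ± 0.12, adjusted p = 0.160, edgeR). Retinal genes were lower in 32 of 44, and their blue-cone opsin opn1sw2 was at 142, 121 and 145 CPM against 166, 173 and 179 CPM (-0.34 ± 0.12). The list medians were -0.14, -0.16, -0.14 and -0.19, and with the covariate 0.05, 0.04, -0.04 and -0.04. In the fit of 6 libraries skin had 3 of 24, matrix 4 of 40 and muscle 2 of 40 genes called, all lower. Retina had 0 of 41, and 0.623% of all genes were called lower there.

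Metabolic and growth lists held single genes that stood apart. mlxipl, a glucose-sensing transcription factor gene of liver, was at 34.5, 32.8 and 37.1 CPM against 19.1, 20.3 and 16.7 CPM (log2 0.89 ± 0.22, adjusted p = 0.0968 with 27 libraries and 0.0199 with 6, edgeR). It kept a log2 fold change of 0.62 with the covariate. igfbp3, a binding protein of insulin-like growth factors, was at 40.6, 32.8 and 28.8 CPM against 18.5, 16.7 and 21.5 CPM (0.86 ± 0.24, adjusted p = 0.149 and 0.0287, edgeR), and igfbp2b at 40.0, 31.4 and 34.3 CPM against 19.1, 20.9 and 25.0 CPM (0.71 ± 0.23). In the list of insulin and growth signalling 5 of 40 had an unadjusted p under 0.05, all higher, beside 6.19% of all genes.

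The fructose-bisphosphatase gene fbp2 was at 14.2, 23.5 and 20.6 CPM against 34.1, 39.4 and 34.7 CPM (log2 -0.90 ± 0.30, adjusted p = 0.259 and 0.0227, edgeR), and its difference with the covariate was -0.43. The pyruvate carboxylase gene pcxb was at 368, 354 and 332 CPM against 287, 279 and 247 CPM (0.37 ± 0.13, adjusted p = 0.266 and 0.0136, edgeR), and its difference with the covariate was 0.06. The 2 genes, both in the list of gluconeogenesis and amino acid catabolism, thus lay on opposite sides of DMSO, and the list as a whole had 15 genes higher and 23 lower (median -0.14, and 0.06 with the covariate).

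Immune lists showed few differences among the genes that could be tested. For inflammation, interferon, myeloid and lymphoid cells 20 of 37, 13 of 26, 12 of 26 and 9 of 19 entries were tested. Of the 20 inflammation genes 7 were higher and 13 lower (none passed with 27 libraries, 1 higher and 2 lower with an unadjusted p under 0.05, edgeR). In the fit of 6 libraries nfkbiab was the only gene called of 15 tested there, lower, beside 0.623% of all genes. The interferon list had a median of 0.14 over 13 genes (0.13 with the covariate), and the lists of myeloid and lymphoid cells had 0 and 1 genes with an unadjusted p under 0.05 among 12 and 9 tested. The myeloid and lymphoid medians were 0.00 and 0.19, and 0.00 and -0.09 with the covariate. The named myeloid genes spi1b, grn1, cyba and marco lay between 0.713 and 21.4 CPM, where single libraries rest on few counts. Xenobiotic genes were lower in 11 of 14 (median -0.16, and 0.04 with the covariate), and the heat shock list, with bag3 as the gene called in the fit of 6 libraries, had a median of -0.13 over 18 genes (-0.08 with the covariate).

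Lipid genes gave 33 of 51 lower and a median of -0.11 (0.09 with the covariate). Besides mlxipl, the fit of 6 libraries called 3 apolipoprotein genes, all lower, among 48 tested lipid genes, beside 0.623% of all genes. apoc1 was at 576, 573 and 679 CPM against 828, 892 and 804 CPM (log2 -0.47 ± 0.27, adjusted p = 0.540 with 27 libraries and 0.000534 with 6, edgeR). Its groups did not overlap, and at 25 µM it lay at 590, 726 and 830 CPM, overlapping both. apoa1b and apoa2, the structural proteins of high-density lipoprotein, had log2 fold changes of -0.31 ± 0.16 and -0.29 ± 0.12, which became 0.05 and -0.01 with the covariate.

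Genes of the response to oxidative stress and metals gave the lowest list median, -0.30 over 14 genes (-0.04 with the covariate). Of the 14, 4 lay below all controls, where 9.22% of all genes did. The thioredoxin gene txn was at 93, 107 and 109 CPM against 158, 155 and 114 CPM (log2 -0.47 ± 0.18, adjusted p = 0.314 with 27 libraries and 0.0294 with 6, edgeR). Its log2 fold change was -0.11 with the covariate. The peroxidase gene gpx4a was at 103, 125 and 131 CPM against 154, 161 and 154 CPM (-0.39 ± 0.16, 0.02 with the covariate). The metallothionein gene mtbl lay on the other side, at 32.0, 31.4 and 31.6 CPM against 17.3, 25.7 and 16.7 CPM (0.66 ± 0.25, adjusted p = 0.301, edgeR), and kept 0.76 with the covariate. Metallothioneins bind zinc and copper and are receptor-responsive in mammals.

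Clock genes gave 21 of 33 lower, 6 below all controls (9.22% of all genes were), with a median of -0.05 (0.00 with the covariate). The nuclear receptor genes of the clock nr1d2a and nr1d4b were at 117, 119 and 125 CPM against 152, 163 and 154 CPM, and at 11.7, 6.42 and 11.0 CPM against 21.4, 17.3 and 18.1 CPM. Neither group overlapped its controls, and the log2 fold changes were -0.38 ± 0.13 and -0.95 ± 0.29 (adjusted p = 0.266 and 0.197, edgeR). With the covariate they were -0.19 and -1.10.

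Liver plasma proteins gave 24 of 36 lower and a median of -0.09 (-0.01 with the covariate), and the complement gene c7b was at 91.8, 91.3 and 92.7 CPM against 61.9, 70.4 and 68.8 CPM (log2 0.46 ± 0.15, adjusted p = 0.249 with 27 libraries and 0.0491 with 6, edgeR). Against 25 µM 3 of the 36 plasma protein genes were lower, beside 0.952% of all genes. These were the fibrinogen genes fga and fgg and the ceruloplasmin gene cp, with log2 differences of -0.50, -0.53 and -0.54. Ionocytes are the cells that move salts and ammonia across skin and gill. Of their 29 tested genes 12 were higher and 17 lower (median -0.04). Among them slc4a1b was at 24.6, 37.8 and 24.0 CPM against 15, 18.5 and 9.03 CPM (0.99 ± 0.29, adjusted p = 0.178 with 27 libraries and 0.0326 with 6, edgeR). On the other side trpv6 and ca4b lay below all controls (-0.99 ± 0.38 and -0.75 ± 0.46, adjusted p = 0.316 and 0.557, edgeR). The ammonia transporter gene rhcga overlapped DMSO, at 35.1, 20.7 and 15.8 CPM against 28.9, 22.7 and 36.8 CPM, and lay at 51.4, 54.2 and 77.0 CPM at 25 µM (log2 difference -1.32 from 25 µM). Red blood cell genes had a median of 0.11 over 15 genes, and 0.32 with the covariate, the median farthest from 0 of the 34 lists in that fit. Among them nt5c2l1 was at 37.6, 62.7 and 29.5 CPM against 24.9, 23.9 and 25.0 CPM (0.81 ± 0.27, adjusted p = 0.252 and 0.0371, edgeR).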

How the data were processed

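Per the labels' protocols, total RNA from pooled homogenates went into 3′ libraries with unique molecular identifiers. Tools named in the submitters' processing notes, with no role given, were STAR 2.7.10a, bcl2fastq 2.20.0, MultiQC 1.12, FastQC, edgeR and HTSeq 2.0.1. Neither the genome build nor any use of the identifiers against duplicates is stated (not given in the sources used here), so the tests cover counted reads. The authors deposited raw counts per gene for 36695 genes, and those of the dexamethasone table were used. Its entries for unassigned reads were dropped before library sizes were taken. Over the 27 libraries reads counted in genes ranged from 1316614 to 2027874, and reads assigned to no feature were 24.3 to 33.6% of all reads, those aligned to several places 10.7 to 12.0%, those not aligned 7.28 to 8.77% and ambiguous ones 0.592 to 0.774%. All of its 27 sample columns were used.

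Low genes were dropped by filterByExpr (minimum count 10, minimum total 15) and the rest scaled by TMM and tested with edgeR 4.0.16 (robust quasi-likelihood) in R 4.3.3 in 1 fit of 27 libraries in 9 groups, with Benjamini-Hochberg adjustment over 18075 genes and a threshold of 0.05. Alternatives were RLE factors, no filter, a replicate block, the covariate, DESeq2 1.42.0, limma 3.58.1 with voom and quality weights, the 6 libraries alone, and leaving out each library. The scripts were first tested on simulated data. Replicates of a group differed by more than sampling noise (chi-square per degree of freedom 1.60 to 1.95).

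Named genes were all those called, the 12 per direction with the smallest p among genes with a symbol, no overlap between groups and 5 CPM or more in the higher group (10 genes without a symbol were passed over among the higher and 4 among the lower), all receptor targets, up to 4 per other list, the 8 per direction with the smallest p at 25 µM, and up to 5 per direction in contrasts between concentrations. The text gives examples from these, 1 called gene is not reported here, and members of lists called in a contrast are named beside their counts. Of 1448 entries in 34 lists 1267 matched a gene and 1064 were tested. The members and lists were chosen with earlier results of these data known. Of 17174 LOC-numbered genes 8751 were found in the RefSeq table (assembly fPimPro1.hap1.1), used for names only, and 2122 took a symbol from it. Sequences and coordinates were not used here.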

Additional observations from a re-analysis of the deposited data

Results flagged for a closer look

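In reads outside the counted genes, the mean share assigned to no feature at 0.25 µM was 30.4%, with every library above every DMSO library (24.5 to 25.3%). The mean share of reads that did not align was 8.39% at 0.25 µM, where the DMSO libraries lay at 7.28 to 7.66% and those at 0.25 µM at 8.15 to 8.62%. Both entered no comparison of gene expression except as a covariate or a description. Groups of 3 were too small to look for single libraries far from the others.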

How the results depend on the processing

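The count of genes called at 0.25 µM against DMSO (3) was 3 with RLE factors and moved to 131 without a filter on low counts, 22 in DESeq2, 53 in limma, 302 in the 6 libraries alone and 0 with the share of reads assigned to no feature as a covariate. In 2 alternatives chosen after seeing the data it was 4 in the 6 libraries with that covariate, and 0 without the dexamethasone libraries above 30% of reads assigned to no feature. The latter leaves replicate C as the lone library at 0.25 µM, assumed to vary like the other groups. Leaving out a library gave 0 to 30. Against 0.08 µM the count (0) was 37 without a filter, 2 with the covariate, 3 in the 6 libraries compared and 0 to 1 without a library. Against 0.8 µM (3) it was 35, 13 and 3, 9 in DESeq2 and 1 to 6 without a library. Against 25 µM (219) it was 391, 189 and 384, and 85 to 188 without a library, with 105 without 0.25 µM replicate A, 116 without B and 85 without 25 µM replicate B. The difference in the share of reads assigned to no feature was 4.78 to 6.17 points without a library. The cause of these moves was not tested. Same-lettered libraries of the 2 groups did not deviate together (correlations -0.05, -0.03 and -0.04), so the letters were not taken to pair them. That check covers these 2 groups only. Replicate A had the highest share of reads assigned to no feature at 0.25 µM. It also did at 0.025, 0.08, 0.8, 2.5, 8 and 25 µM (33.2, 32.6, 33.6, 28.2, 30.8 and 26.7%). At 0.008 µM replicate C was highest, and in DMSO replicate A was lowest. What the letters stand for was not tested. With the replicate block 69 genes were called against DMSO, 0 against 0.08 µM, 11 against 0.8 µM and 343 against 25 µM, and 338 in the 6 libraries. Of the called genes LOC120491637 lost its call in 8 of 16 alternatives and LOC120487973 in 9, and neither turned direction (log2 0.56 to 1.59 and -2.65 to -1.99). Of 195 named genes 78 kept their side of the threshold and their size in every alternative, as did 21 of 34 list medians. Depth limits genes below about 5 CPM, which rest on under 10 counts a library.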

Other observations

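The following genes were chosen after their values were seen. APY78_gr01, an entry with no name in the files or in the reference table, had the smallest p of all tested entries in the comparisons of 0.25 with 0.8 and with 25 µM. It lay at 10356, 9764 and 10286 CPM at 0.25 µM and 15094, 13390 and 13172 CPM in DMSO, without overlap (log2 -0.45 ± 0.11, adjusted p = 0.0916, edgeR). At 0.8 µM it lay at 18334, 18101 and 17863 CPM and at 25 µM at 25373, 28578 and 27038 CPM, above both. The direct log2 differences of 0.25 µM were -0.84 ± 0.11 from 0.8 µM (adjusted p = 1.45e-05, edgeR) and -1.41 ± 0.11 from 25 µM (adjusted p = 2.71e-12, edgeR). The group means were 15023 CPM at 0.008 µM, 14155 CPM at 0.025 µM and 11570 CPM at 0.08 µM, so that the lowest mean of the 9 groups was at 0.25 µM. APY78_gr02, which carries a like name, was at 546, 523 and 644 CPM at 0.25 µM, 766, 747 and 756 CPM in DMSO and 1003, 1211 and 1009 CPM at 25 µM.

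LOC120492053, without a symbol, was the third gene lower at 0.25 than at 0.8 µM, at 1.85, 7.84 and 3.43 CPM against 23.7, 16.2 and 20.7 CPM (log2 difference -2.22 ± 0.43, adjusted p = 0.0340, edgeR). In DMSO it lay at 14.5, 10.1 and 18.1 CPM, and its mean in the other groups was between 13.3 and 20.2 CPM. The mean at 0.25 µM, 4.37 CPM, was the lowest of the 9 groups, and the difference from DMSO did not pass (-1.71 ± 0.46, adjusted p = 0.125, edgeR).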
